A study of Homo sapiens with 8 samples.

Results

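The genes described here encode the peptide precursors of the calcitonin and adrenomedullin family and their receptor subunits. They are 7 of the 18656 gene symbols in the expression table: the precursors CALCA, CALCB, ADM and ADM2, the receptor CALCRL, and its partners RAMP1 and RAMP2. They were taken by symbol, and CALCB was selected on its TPM, which was much lower at 72 h than at 24 h. That contrast therefore chose CALCB, and its values in any comparison with the 24 or 72 h libraries are given as a description without a test. The other 6 genes were taken for their place in the family, with earlier results of these data known.

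RNA was sequenced from the human colorectal cancer cell line SW480, which is an established line, after lipid-mediated transfection of siRNA (small interfering RNA). The 8 libraries form 4 groups of 2. One group received a negative-control siRNA and is labelled 0 h, and the other 3 received an siRNA against TCF7L2 with collection 24, 48 or 72 h later. TCF7L2 encodes a transcription factor through which beta-catenin acts in Wnt signalling, and the study asked how its silencing alters expression. All groups come from 1 cell line. Since the control is labelled 0 h only, an effect of the siRNA and an effect of time in culture cannot be told apart wherever a later group is set against it. Between 24 and 72 h, the length of silencing and time in culture cannot be told apart either. Whether the replicates were separate cultures is not in the labels, whose treatment protocol speaks of 3 replicates where 2 a group were analysed here, so the p-values rest on a spread between libraries that may be technical.

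The peptides of this family are cut from longer precursors and share a looped, amidated structure. CALCA gives calcitonin or alpha-CGRP (calcitonin gene-related peptide) by alternative splicing, CALCB gives beta-CGRP, and ADM and ADM2 give adrenomedullin and adrenomedullin 2, also called intermedin. CALCRL is a G protein-coupled receptor that needs a RAMP (receptor activity-modifying protein) to reach the cell surface and bind ligand: with RAMP1 it forms the CGRP receptor and with RAMP2 an adrenomedullin receptor, and both raise cyclic AMP. In the gut CGRP is known from sensory and enteric neurons, and adrenomedullin from epithelium and vessels.

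Levels are in TPM, a share of all transcripts corrected for gene length. Read depth cannot be recovered from this unit and is unknown, and counting error could not be attached to low levels. Listed TPM summed to 352455.7 in the second 72 h library and to between 448107.5 and 485601.5 in the other 7. Changes were computed after median-ratio scaling, which sets the typical gene to the same level in all libraries. The scaling factors ran from 0.800, in that library, to 1.06. Changes are differences in log2(TPM + 1) of scaled values, ± standard error (SE), which understates the change of low genes, and adjusted p-values are from limma over all 11894 genes that reached 1 TPM in 2 or more libraries. The targeted gene, TCF7L2, had 6.86 and 7.47 TPM at 0 h, 5.82 and 5.05 at 24 h, 4.92 and 4.07 at 48 h, and then 4.07 and 3.53 at 72 h. Its change was -0.26 ± 0.11 at 24 h (limma adjusted p = 0.288), and it fell by 0.56 ± 0.11 at 48 h (limma adjusted p = 0.00725) and by 0.59 ± 0.11 at 72 h (limma adjusted p = 0.00197). The 48 h call was lost without the second 0 h library (0.0532) or the second 48 h library (0.0573). All 7 colon epithelial markers reached 1 TPM or more, with a summed level of 3141.56 to 4220.34 TPM over all groups and KRT18 at 1003.76 or more.

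CALCA and CALCB are close copies, which bears on how reads were divided between them. The longest stretch their coding sequences share without a difference is 60 bases in the GENCODE 29 transcripts (GRCh38, CALCA on the minus strand and CALCB on the plus strand), and all 4 coding transcripts of CALCA and all 3 of CALCB hold it. The stretch is shown because a short read inside it fits both genes. It stands in capitals with 20 coding bases on each side in lower case, coding bases 119 to 218 of CALCA-201 and 116 to 215 of CALCB-201.
CALCA: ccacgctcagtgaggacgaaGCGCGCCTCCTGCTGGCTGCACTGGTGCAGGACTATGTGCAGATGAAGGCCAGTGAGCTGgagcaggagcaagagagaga
CALCB: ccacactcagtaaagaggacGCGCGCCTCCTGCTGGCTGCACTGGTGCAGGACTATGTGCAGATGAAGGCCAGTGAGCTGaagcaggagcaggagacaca
Of the 384 coding bases of CALCA-202, 59.6% lie in stretches of 25 or more bases that also occur in CALCB, against 27.7% of the 423 coding bases of CALCA-201. The shorter form encodes the CGRP precursor and the longer the calcitonin precursor. For CALCB-201 the share is 60.1% of 381 coding bases. Both genes are therefore uncertain to the extent that the authors' estimation could move reads from one to the other, and the table gives 1 value a gene, so calcitonin and CGRP transcripts of CALCA cannot be told apart.

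CALCB was the most abundant gene of the family in the control. It had 17.51 and 17.62 TPM at 0 h, 19.77 and 22.13 TPM at 24 h, 15.51 and 14.04 TPM at 48 h, and then 3.12 and 1.83 TPM at 72 h. The libraries of no group overlapped those of another: the order from high to low was 24 h, 0 h, 48 h and 72 h, and both 72 h libraries lay far below the other 6. The mean TPM at 72 h was 8.46-fold lower than at 24 h, or 7.97-fold lower after scaling. Against 0 h it was 7.10-fold lower, or 6.25-fold after scaling. In log2 terms the difference was -2.61 between 72 and 24 h and -2.27 between 72 and 0 h, and CALCB ranked 4 among 11894 genes by the size of the fall from 24 to 72 h. These values chose the gene and carry no test. In bulk RNA, fewer cells with CALCB transcripts and less CALCB RNA per cell cannot be told apart, here and for the genes that follow. The 48 h comparison with 0 h uses neither group of the contrast that chose it, and there the log2 change was -0.23 ± 0.11, with a 95% interval of -0.48 to 0.02 and a limma adjusted p of 0.164. Both 48 h libraries were below both control libraries, but the difference did not pass the test.

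CALCA was below 1 TPM in every library and did not pass the filter on low values. It was listed at 0.68 and 0.45 TPM at 0 h, 0.59 and 0.56 at 24 h, 0.07 and 0.23 at 48 h, and then 0.13 and 0 at 72 h. The 4 libraries of 0 and 24 h were all higher than the 4 of 48 and 72 h. CALCA amounted to between 2.53 and 3.88% of CALCB in each library of 0 and 24 h, to 0.451 and 1.64% at 48 h, and to 4.17 and 0% at 72 h. In the alternative fit with no filter, limma called CALCA lower at 48 h against 0 h (-0.43 ± 0.10, limma adjusted p = 0.0342). Its change at 72 h was -0.53 ± 0.10 against 0 h and -0.58 ± 0.10 against 24 h. These 72 h values are given without a test, since CALCA may share reads with CALCB, which was chosen on its 72 h values. The part that reads of CALCB had in the CALCA level was not tested.

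**Figure D1:**
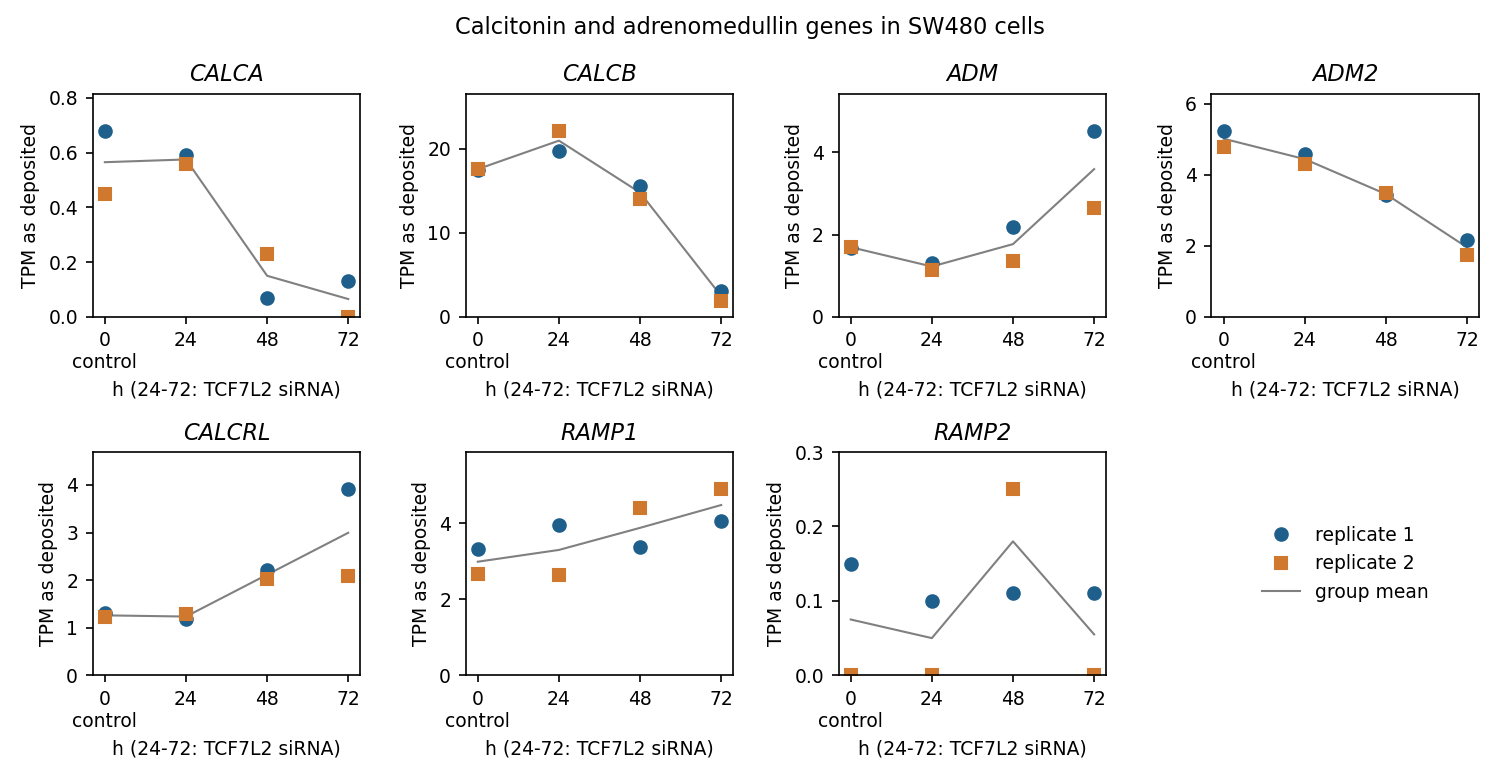
TPM as deposited (vertical axes, each with its own scale from 0) of the 7 genes at 0 h (control siRNA) and at 24, 48 and 72 h (TCF7L2 siRNA). Points are single libraries, circles for replicate 1 and squares for replicate 2, and the grey line joins group means; CALCB reaches 22.13 TPM at 24 h and 1.83 TPM at 72 h, ADM2 steps down from group to group, and CALCRL and ADM are highest at 72 h with their 2 libraries apart.

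ADM2 had 5.24 and 4.79 TPM at 0 h, 4.59 and 4.29 at 24 h, 3.43 and 3.48 at 48 h, and then 2.17 and 1.74 at 72 h. In TPM as deposited no 2 groups overlapped and the levels followed the order of time, while after scaling the 0 h (4.97 and 4.51) and 24 h libraries (4.61 and 4.37) overlapped. At 24 h the change was -0.06 ± 0.10 (limma adjusted p = 0.796, 95% interval -0.28 to 0.15). ADM2 fell by 0.42 ± 0.10 on the log2 scale at 48 h (limma adjusted p = 0.0133) and by 0.87 ± 0.10 at 72 h (limma adjusted p = 7.29e-05), a 2.57-fold lower mean TPM, or 2.21-fold after scaling. Between 24 and 72 h, under the same siRNA, it fell by 0.81 ± 0.10 (limma adjusted p = 0.000126). The 48 h call did not hold on the TPM as deposited (limma adjusted p = 0.0939), without the first 0 h library (0.0968) or without the first or second 48 h library (0.0611 and 0.0621).

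ADM, the adrenomedullin precursor, was highest at 72 h. Its levels were 1.68 and 1.71 TPM at 0 h, 1.30 and 1.15 at 24 h, 2.19 and 1.35 at 48 h, and then 4.53 and 2.66 at 72 h. Both 72 h libraries exceeded the other 6, and the 48 h libraries lay on either side of the control. As deposited both 24 h libraries were the lowest of all. After scaling the second 48 h library (1.28) lay below the first 24 h library (1.31). The 24 h change was -0.22 ± 0.16 (limma adjusted p = 0.554) and the 48 h change 0.03 ± 0.16 (limma adjusted p = 0.921), so neither passed. ADM rose by 0.89 ± 0.16 at 72 h against 0 h (limma adjusted p = 0.0014), a 2.12-fold higher mean TPM, and by 1.11 ± 0.16 against 24 h (limma adjusted p = 0.000413), 2.93-fold higher. After scaling these were 2.41-fold and 3.12-fold. The 2 libraries of 72 h stood apart by 4.53 against 2.66 TPM, a gap that scaling reduced to 4.40 against 3.32. The 72 h change was 0.73 without the first 72 h library and 1.06 without the second.

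CALCRL, the receptor, had 1.30 and 1.22 TPM at 0 h and 1.18 and 1.29 TPM at 24 h, which overlapped. It had 2.21 and 2.02 TPM at 48 h and 3.91 and 2.08 TPM at 72 h. All 4 of these later libraries were above all 4 earlier ones. As deposited the 48 and 72 h groups overlapped, since the second 72 h library lay between the 2 of 48 h. After scaling they did not, with 2.11 and 1.91 at 48 h and 3.79 and 2.60 at 72 h. The 24 h change was 0.04 ± 0.14 (limma adjusted p = 0.93). CALCRL rose by 0.46 ± 0.14 at 48 h (limma adjusted p = 0.0458) and by 0.92 ± 0.14 at 72 h (limma adjusted p = 0.000544), and by 0.89 ± 0.14 from 24 to 72 h (limma adjusted p = 0.000742). Mean TPM at 72 h was 2.38-fold that at 0 h, and 2.68-fold after scaling. CALCRL at 48 h did not pass in 10 of the 16 alternatives. These included the fits without either 0 h library (limma adjusted p = 0.132 and 0.166), either 24 h library (0.0645 and 0.0657) or either 48 h library (0.178 and 0.11), and the TPM as deposited (0.0748).

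RAMP1, the partner that makes CALCRL a CGRP receptor, was more abundant than the receptor in every library. It had 3.31 and 2.66 TPM at 0 h, 3.95 and 2.64 at 24 h, 3.36 and 4.39 at 48 h, and then 4.06 and 4.89 at 72 h. In TPM as deposited the 72 h libraries exceeded those of 0 and 24 h but overlapped those of 48 h, and replicates of 1 group differed by more than 1 TPM at 24 and 48 h. Scaling widened the gap between the 72 h libraries to 3.94 against 6.11, and the first then lay below the first 24 h library (3.97). The changes of 0.17 ± 0.20 at 24 h (limma adjusted p = 0.731) and 0.29 ± 0.20 at 48 h (limma adjusted p = 0.326) did not pass. RAMP1 rose by 0.64 ± 0.20 at 72 h against 0 h (limma adjusted p = 0.0235), a 1.78-fold higher mean after scaling. Against 24 h the change of 0.47 ± 0.20 did not pass (limma adjusted p = 0.078), and it ran from 0.21 without the second 72 h library to 0.74 without the first. On leaving out 1 library the 48 h change ran from 0.14, without the second 48 h library, to 0.43, without the first. The 72 h call against 0 h was lost without the second 0 h library (limma adjusted p = 0.132) or the second 72 h library (0.165), where the change was 0.38 ± 0.21.

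RAMP2, the partner that makes CALCRL an adrenomedullin receptor, was at or near 0 throughout. It was listed at 0 in the second library of 0, 24 and 72 h, at 0.15, 0.10 and 0.11 TPM in the first libraries of those groups, and at 0.11 and 0.25 TPM at 48 h. The groups of each comparison overlapped, while both 48 h libraries lay just above both of 24 h. The gene did not pass the filter on low values. RAMP3, the other partner in adrenomedullin receptors, was listed at 0 in 7 libraries and at 0.05 TPM in the second 48 h library. CALCR, the calcitonin receptor, reached at most 0.06 TPM. Among CALCR, CALCRL and the RAMP genes, CALCRL and RAMP1 alone exceeded 1 TPM, as they did in every library.

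**Figure D2:**
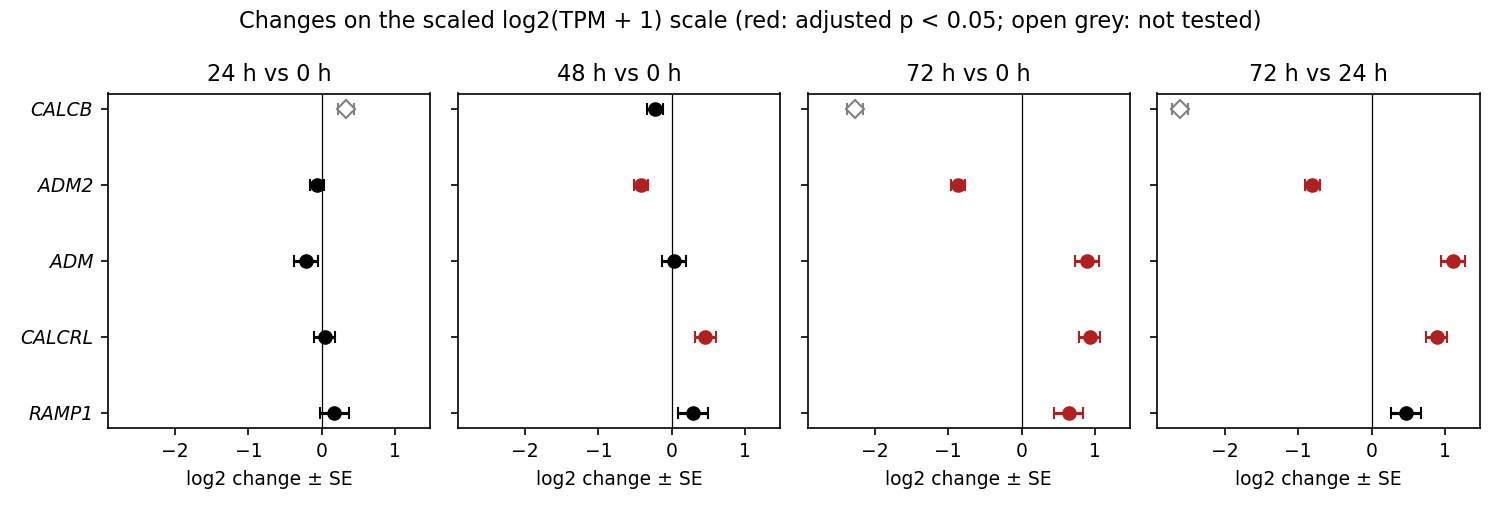
Changes of the 5 genes above 1 TPM in the 4 comparisons, as differences in scaled log2(TPM + 1) on the horizontal axes with bars of 1 SE from the fit to all 8 libraries. Red points have a limma adjusted p under 0.05, black points do not, and open grey diamonds mark CALCB where it was not tested; at 72 h against 0 h ADM2 lies at -0.87 and ADM, CALCRL and RAMP1 lie between 0.64 and 0.92.

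In counts, 5 of the 7 genes passed the filter on low values, each with 1 TPM or more in all 8 libraries. At 24 h against 0 h limma called 0 of the 4 genes tested, and 0 also at an unadjusted p under 0.05, where 1.08% of all genes were called (0.647% higher, 0.437% lower). At 48 h it called 2 of 5, CALCRL higher and ADM2 lower, where 23.5% of all genes were called (12% higher, 11.5% lower). At 72 h it called 4 of 4, of which 3 were higher and 1 lower, where 51.9% of all genes were called, 25.8% higher and 26.2% lower. Between 24 and 72 h it called 3 of 4 (2 higher, 1 lower), where 50.1% of all genes were called (24.9% higher, 25.2% lower). With about as many genes called as not at 72 h, these counts are not a result particular to the family. Leaving out CALCB, the deposited TPM of the groups did not overlap at 24 h against 0 h for 2 of 4 genes, where this held for 57.5% of all genes. It held for 3 of 4 at 48 h (66% of all genes), 4 of 4 at 72 h against 0 h (64.7%) and 4 of 4 at 72 h against 24 h (58.4%), of which RAMP1 overlapped after scaling. The median change of the 4 genes tested at 72 h was 0.77, against 0.00 over all genes. On the TPM as deposited all 4 kept their direction and their call at 72 h, while the median of all genes shifted to -0.19 and the share of higher genes among those called went from 49.6% to 25.2%. Between 24 and 72 h that share went from 49.8% to 35.9%. The comparisons with 0 h share their control libraries, and those at 72 h share the 72 h libraries, so their values are not independent of each other.

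Markers of other cell types were examined beside these genes. Endothelial cells are a known site of CALCRL, and all 6 endothelial markers were below 1 TPM in every library. Their summed level was 0.17 to 0.28 TPM at 0 h, 0.32 to 0.33 at 24 h, 0.48 to 0.80 at 48 h and 0.63 to 0.97 at 72 h. It was above 0 h at 24, 48 and 72 h. These levels are near 0, where counting error is unknown. All 5 leukocyte markers were below 1 TPM, with sums of 0.28 to 0.44 TPM at 0 h and 0.64 to 1.09 TPM at 72 h. Of 8 neuroendocrine markers, the genes of the cells in which CALCA is best known, 6 were below 1 TPM in every library, and SYP (1.74 to 4.02 TPM) and NEUROD1 (1.00 to 2.34 TPM) were at or above it. The neuroendocrine sum was 5.28 to 5.31 TPM at 0 h and 4.72 to 5.07 TPM at 72 h; in scaled values NEUROD1 rose and SYP fell at 72 h. Of 5 fibroblast markers, the matrix proteoglycan gene LUM (7.50 to 45.01 TPM) and COL1A1 (1.14 to 3.02 TPM) exceeded 1 TPM in every library. COL1A2 did so in the second 48 h library only and DCN in the first 0 h library only, both at 1.06 TPM. The sum of the 5 was 10.85 to 12.76 TPM at 0 h and 34.26 to 49.61 TPM at 72 h, mainly LUM. No marker of these lists was at 0 in all libraries, and the part of such markers in the changes of ADM, CALCRL and RAMP1 was not tested.

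Mature peptides of this family depend on enzymes that cut and amidate the precursors. Of 9 processing genes 7 were tested, and at 72 h against 0 h 3 rose and 2 fell, where 25.8% of all genes were called higher and 26.2% lower. The median change was 0.18, against 0.00 over all genes. PAM, the amidating enzyme, rose from 117 ± 7.09 to 197 ± 47.2 TPM (SD, n = 2 each), a log2 change of 0.94 ± 0.06 (limma adjusted p = 2.21e-06). The proprotein convertase genes PCSK5 and FURIN rose by 0.62 ± 0.11 and 0.45 ± 0.08, and PCSK7, of the same family, fell by 0.76 ± 0.07. On the TPM as deposited 2 rose and 2 fell, FURIN was not called, and the median was -0.03. Of the 4 peptide-degrading enzymes, MME, which encodes neprilysin, rose by 1.26 ± 0.08 (limma adjusted p = 3.06e-06) and ECE2, an endothelin-converting enzyme, fell by 1.07 ± 0.10. ECE1 (0.18 ± 0.07, limma adjusted p = 0.0661) and IDE, the insulin-degrading enzyme (-0.09 ± 0.09, limma adjusted p = 0.417), did not pass. The rise of MME was called from 24 h (0.66 ± 0.08, limma adjusted p = 0.0145) and was 0.90 ± 0.08 at 48 h (limma adjusted p = 0.000158). That of PAM was called from 48 h (0.68 ± 0.06, limma adjusted p = 0.000122). ADM was called higher at 72 h only, and ADM2 lower at 48 and 72 h.

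Downstream of CALCRL lies the cyclic AMP pathway, for which 16 of 21 listed genes were tested. At 72 h against 0 h 2 rose and 5 fell (1 and 6 on the TPM as deposited), with a median of -0.10, where 51.9% of all genes were called. GNAS, the stimulatory G protein, had 430 ± 7.01 TPM at 0 h and 448 ± 65.9 TPM at 72 h (SD, n = 2 each). It rose by 0.27 ± 0.04 after scaling (limma adjusted p = 0.000472) but was not called on the TPM as deposited. ATF1, a cyclic AMP-responsive transcription factor, fell by 0.70 ± 0.09, ARRB2, a beta-arrestin, by 0.68 ± 0.09, and PRKAR1B, a regulatory subunit of protein kinase A, by 0.57 ± 0.08. Among 7 other genes named for the family or its receptors, 2 were tested at 72 h: CRCP, a protein linked to the CGRP receptor and a subunit of RNA polymerase III, fell by 0.20 ± 0.06 (limma adjusted p = 0.0148), and ADM5 had a change of -0.28 ± 0.12 (limma adjusted p = 0.0857).

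ADM is a known target of the hypoxia-inducible factor HIF-1, and ADM2 is known among genes induced through ATF4 in the integrated stress response. Both lists were chosen with earlier results of these data known. Of 10 HIF target genes 9 were tested, and at 72 h against 0 h 1 rose and 3 fell (0 and 6 on the TPM as deposited), with a median of -0.29. Of all genes 51.9% were called in the scaled fit, and 4968 of 11894, 3715 of them lower, on the TPM as deposited. SLC2A1, the glucose transporter GLUT1, fell by 1.83 ± 0.05, VEGFA, an angiogenic growth factor, by 1.00 ± 0.08 and P4HA1 by 0.29 ± 0.09. NDRG1 (0.48 ± 0.26) and EGLN3 (0.37 ± 0.15) had positive changes that were not called in the scaled fit. CA9 (-0.34 ± 0.18), PDK1 (-0.25 ± 0.13) and ANKRD37 (-0.29 ± 0.19) had negative ones, likewise not called there. The part of HIF-1 in the rise of ADM was not tested. KDM3A, a histone demethylase, rose by 0.44 ± 0.10 after scaling but was not called higher on the TPM as deposited, where no gene of the list was. Of 10 ATF4 target genes all 10 fell at 72 h under the scaled fit and on the TPM as deposited, with a median of -1.15 in the former. Among them were TRIB3, a pseudokinase gene (-3.30 ± 0.05), DDIT4, an inhibitor of mTOR signalling (-2.39 ± 0.05), DDIT3, which encodes CHOP (-1.62 ± 0.07), and PHGDH, of serine synthesis (-0.99 ± 0.05). The change of ADM2 at 72 h was -0.87 ± 0.10, and its size cannot be ranked against that list's median. ADM2 is a low gene, whose change is understated by the 1 added to TPM. With 0.1 added in place of 1 it was -1.11.

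**Figure D3:**
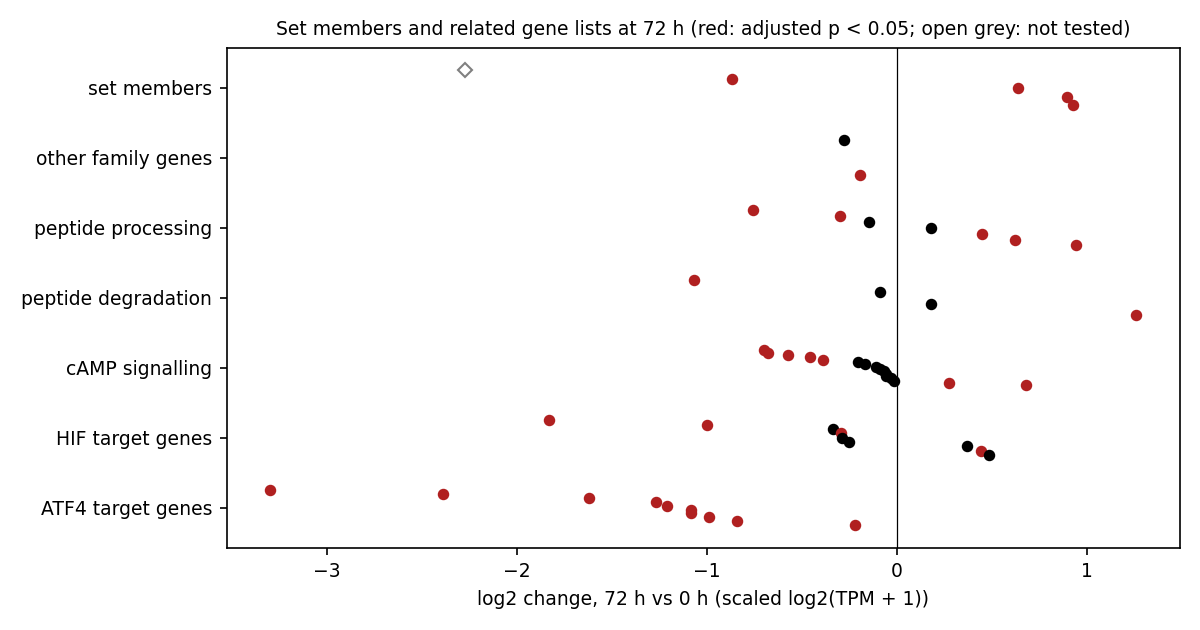
Log2 changes at 72 h against 0 h (scaled log2(TPM + 1), horizontal axis) of the set and of 6 related lists, 1 point a gene above the low-value filter, ordered by change within each row. Red points have a limma adjusted p under 0.05 and the open grey diamond is CALCB, not tested; all 10 ATF4 target genes lie below 0, while the other lists have genes on both sides except the 2 other family genes, both below 0.

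The genes whose course was most like that of CALCB were found by the root mean square difference of their 8 library values, each taken as scaled log2(TPM + 1) minus the 0 h mean, among 9354 genes whose highest group mean was 5 TPM or more. The median over those genes was 1.15. The nearest were BEST1, which encodes the chloride channel bestrophin 1 (0.230), CCNB1IP1, a ubiquitin ligase acting on cyclin B (0.240), DDIT4 (0.262) and FUT1, a fucosyltransferase (0.279). BEST1 was, like CALCB, higher at 24 h than at 0 h, by 0.35 and 0.33 in its 2 libraries, and lower at 72 h, by 1.87 and 1.93. DDIT4 and FUT1 lay below the 0 h mean already at 24 h. Nearest to ADM2 were YDJC (0.0422) and G0S2 (0.0498), a lipolysis inhibitor. Nearest to ADM were NKIRAS1 (0.129) and the matrix metalloproteinase gene MMP14 (0.144), nearest to CALCRL LBH (0.0634) and AGMO (0.0721), and nearest to RAMP1 USP30 (0.104) and HOMEZ (0.123). ADM, CALCRL and RAMP1 had mean TPM below 5 in every group, and the 1 added to TPM understates changes more in lower genes. Their likeness to these genes therefore holds on this scale only.

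**Figure D4:**
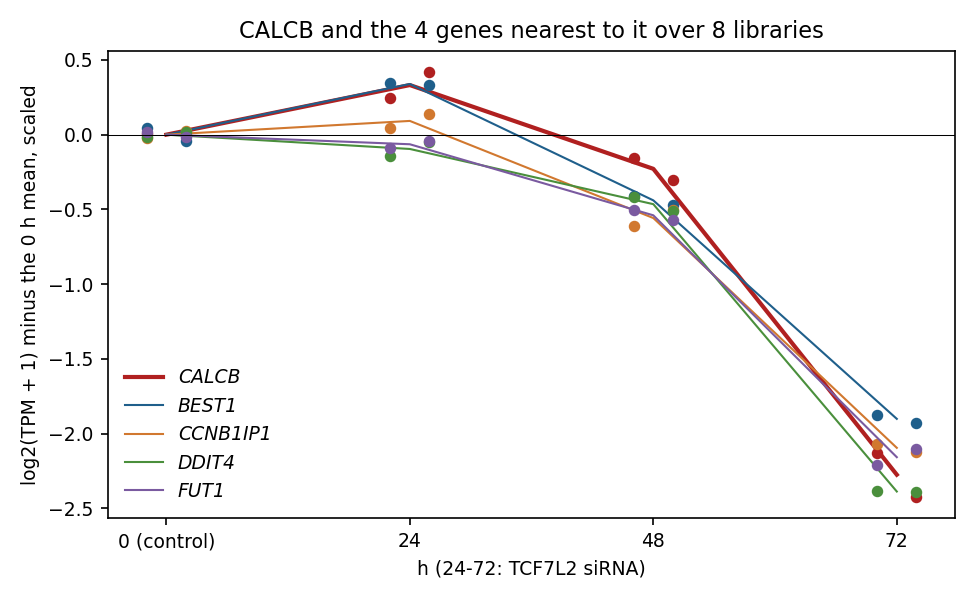
CALCB and the 4 genes nearest to it, as scaled log2(TPM + 1) minus the 0 h mean (vertical axis) by time (horizontal axis, 0 h being the control siRNA). Points are the 8 libraries, lines join group means; at 72 h CALCB lies at -2.13 and -2.42 and BEST1 at -1.87 and -1.93, and at 24 h both are above 0.

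CALCA and CALCB lie side by side on chromosome 11, with no other listed gene between them. Among the nearest 3 listed genes on each side (order from RefSeq), INSC, next to CALCB and known for its part in spindle orientation, had 1.44 and 0.89 TPM at 0 h, 0.76 and 0.85 at 24 h, 0.52 and 0.38 at 48 h, and then 0.12 and 0.06 at 72 h. It was too low to be tested, and its 72 h libraries were the lowest, as for CALCB. On the other side CYP2R1, a vitamin D hydroxylase, fell by 0.46 ± 0.12 at 72 h against 0 h (limma adjusted p = 0.00847), PDE3B had a change of -0.18 ± 0.16 (limma adjusted p = 0.377) and PSMA1, a proteasome subunit, fell by 0.33 ± 0.06 (limma adjusted p = 0.00231). For CYP2R1 and PSMA1 too, the 72 h libraries were the lowest. Of all genes 26.2% were called lower at 72 h against 0 h. Beyond INSC, SOX6 had a change of 0.46 ± 0.20 (limma adjusted p = 0.08) and C11orf58 one of -0.04 ± 0.06 (limma adjusted p = 0.619).

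Promoter sequences from RefSeq (GRCh38.p14) were at hand for 4 of the 7 genes. Those of the tested genes are shown as the 250 bases before the annotated start, because ADM and CALCRL rose at 72 h and ADM2 fell. Capitals mark matches to any of 5 motifs searched on both strands: the TCF/LEF core CTTTGA, the cyclic AMP response element TGACGTCA and its core TGACG, which overlaps it, the hypoxia element core ACGTG, and the C/EBP-ATF element TGATGNAA.
ADM, chr11:10304823-10305072, plus strand: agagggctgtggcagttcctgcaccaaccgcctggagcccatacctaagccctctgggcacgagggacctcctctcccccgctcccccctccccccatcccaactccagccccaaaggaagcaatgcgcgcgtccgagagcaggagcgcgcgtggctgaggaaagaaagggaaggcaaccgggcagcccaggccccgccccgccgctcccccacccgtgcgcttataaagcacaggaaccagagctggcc
CALCRL, chr2:187448253-187448502, minus strand: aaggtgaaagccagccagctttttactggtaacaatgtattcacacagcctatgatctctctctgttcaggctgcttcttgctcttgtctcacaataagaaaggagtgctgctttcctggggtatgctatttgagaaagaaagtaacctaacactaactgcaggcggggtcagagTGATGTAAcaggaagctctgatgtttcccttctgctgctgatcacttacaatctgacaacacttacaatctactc
ADM2, chr22:50481293-50481542, plus strand: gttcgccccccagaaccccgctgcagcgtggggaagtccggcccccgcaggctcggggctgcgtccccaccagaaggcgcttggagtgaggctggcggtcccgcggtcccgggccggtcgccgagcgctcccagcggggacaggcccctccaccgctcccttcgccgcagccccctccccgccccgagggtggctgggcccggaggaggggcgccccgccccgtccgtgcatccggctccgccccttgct
ADM and ADM2 held none of the 5 motifs as searched. CALCRL held 1, a C/EBP-ATF element 75 bases before the start on the strand of the gene. The hypoxia core was searched in the form ACGTG alone. The form GCGTG was not searched, and it occurs in the ADM and ADM2 letters shown. The promoter of CALCA, not shown, held 2 matches: a C/EBP-ATF element 184 bases before the start on the opposite strand and the cyclic AMP response element core 110 bases before it on the strand of the gene. Among 14594 listed genes with a promoter of this length, 2.21% held that element, 9.46% the TCF/LEF core, 2.32% the full cyclic AMP response element, 25.7% its core and 20.9% the hypoxia core. GC content was 68% in ADM, 78.8% in ADM2 and 44% in CALCRL. A match is a description of these letters and not a binding site.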

How the data were processed

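Total RNA of 8 SW480 libraries was depleted of ribosomal RNA with bead-bound oligonucleotides and sequenced, per the labels' protocols. The authors deposited 1 table of TPM with 18656 gene symbols. The submitters' processing notes name RSEM, STAR, Trimmomatic, FastQC, Picard, SAMtools and the build hg19. Versions, annotation and strand setting: not given in the sources used here. Of the symbols, 18282 matched RefSeq.

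The filter kept 11894 genes that reached 1 TPM in 2 or more libraries. Libraries were scaled by median ratios, and log2(TPM + 1) was fitted in limma 3.58.1 (R 4.3.3) to all 8 libraries (4 residual degrees of freedom, mean-variance trend, two-sided, Benjamini-Hochberg, threshold 0.05). Scaling was chosen because without it the prior degrees of freedom were infinite, so that each gene took the spread of the trend; with it they were 5.41. The genes and lists were chosen with earlier results of these data known. All 7 genes, TCF7L2, up to 4 genes a list with the smallest p at 72 h, the nearest genes by course and the 3 neighbours on each side were named by rule. The other HIF target genes tested were named as well. Alternatives were other scalings, pseudocounts, filters and variance models, the compared groups alone, a replicate block and leaving out each library. In simulated data at 72 h against 0 h (11688 genes), the fit recovered 95.5% of 2-fold and 80.6% of 1.5-fold changes with 13 false calls. At 24 h against 0 h (11681 genes) it recovered 92.5% and 62.7% with 7. These folds were shifts in log2(TPM + 1) given to few genes, 67 at each of these sizes, all with a mean above 2 on that scale. ADM and CALCRL lay below that mean, and 51.9% of real genes were called at 72 h, so the rates may not carry over. Same-numbered replicates deviated together at correlations of only -0.09 to 0.11 across genes, so the numbers were not taken as pairs. Proteins were not analysed here.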

Additional observations from a re-analysis of the deposited data

How the results depend on the processing

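At 72 h against 0 h and against 24 h the calls and directions of ADM, ADM2 and CALCRL held in all 16 alternatives in which each could be fitted, with a minimum TPM of 5 leaving none of them. The number of genes called stayed within 1.5 times at 72 h: leaving out 1 library gave 4919 to 6041 against 0 h and 4614 to 5798 against 24 h. At 24 h the 129 genes called became 55 on the TPM as deposited, 15 with no filter, 217 with a minimum TPM of 5 and 20 with no variance trend, and 4 to 296 on leaving out 1 library. Of those called at 24 h, 59.7% were higher, against 45.5% as deposited and 49.1% after quantile normalization. At 48 h the 2797 called became 922 as deposited and 1358 to 3147 on leaving out 1 library. The 2 genes of the family called at 48 h became 0 as deposited, 1 with quantile normalization, 1 with a pseudocount of 5, 0 with a minimum TPM of 5 (CALCB alone tested), and 0 to 2 on leaving out 1 library. With no filter 2318 genes were called at 48 h (1208 higher, 1110 lower), and the count of the family was again 2, with 0 higher and 2 lower. CALCRL was lost (limma adjusted p = 0.0933). CALCA was gained (0.0342), a gene below 1 TPM that shares coding sequence with CALCB. At 72 h against 0 h ADM, ADM2 and CALCRL kept their calls with no filter. RAMP1 at 72 h against 0 h was not called with quantile normalization (limma adjusted p = 0.0518) or with no filter (0.0767), and against 24 h it was called without the first 24 h library (0.0433) or the first 72 h library (0.0172). The sign of changes that did not pass turned for CALCRL at 24 h (-0.016 as deposited, and -0.0040 to 0.079 on leaving out 1 library, the lowest without the second 24 h library), RAMP1 at 24 h (-0.046 to 0.38, the lowest without the first 24 h library) and ADM at 48 h (-0.030 with quantile normalization, and -0.19 to 0.25, the lowest without the first 48 h library). The cause was not tested. A pseudocount of 5 lowered the 72 h change of ADM to 0.42, since it shrinks low genes. With the replicate number as a block, 91 genes were called at 24 h, 2707 at 48 h, 6141 at 72 h and 5873 between 24 and 72 h, and no call among the 5 genes above 1 TPM changed. Depth is unknown, which limits what can be said of CALCA and RAMP2, both below 1 TPM.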
